A study of Arabidopsis thaliana with 36 samples.

Results

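The rootstock of grafted seedlings of Arabidopsis thaliana labelled dof quadruple was compared with the intact hypocotyl of the same mutant. The comparison used 6 of the 36 libraries of the series: 3 of the dof quadruple rootstock and 3 of the dof quadruple intact hypocotyl, chosen by the genotype and tissue in their labels. Seedlings were 7 days old and were grown with 8 h of light and 16 h of dark at 20 °C. For the rootstock, the hypocotyl was cut across, the upper and lower pieces of different plants were joined, and 0.5 mm below the junction was taken 24 h after grafting. For the intact group, 1 mm of uncut hypocotyl was taken at the same time. Seedlings of both groups had lost a cotyledon, and both carry the mutation, so neither group is wild type. The labels do not say where along the hypocotyl the intact piece was taken, so the cut and the position of the piece cannot be told apart. They give no genotype for the upper piece apart from the name of the group. Col-0 (wild-type) rootstock and intact hypocotyl and the dof quadruple scion (0.5 mm above the junction), with 3 libraries each, were used where the comparison needed them. Each group has 3 biological replicates, per the series design. Whether a replicate pools several seedlings is not stated, so p-values measure the spread between samples as taken. That spread was estimated over all 36 libraries of the series, not from the 6 compared libraries alone.

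When a hypocotyl is cut, its phloem and xylem strands are interrupted: sugars and auxin moving down from the shoot stop at the cut, so the piece above it and the piece below it receive different supplies until vascular strands reconnect. Cells at the surface expand, divide and stick to the opposing piece before new vascular strands form. DOF proteins are plant transcription factors with a single zinc finger of the DOF type that bind AAAG-containing DNA, and several of them are active in procambium, cambium and phloem precursor cells. The series concerns DOF factors in healing after cell-wall damage, and the comparison below the junction asks which genes respond to the cut in a plant without the normal set of these factors.

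Levels are CPM (counts per M counts of a library, M standing for mega), computed on TMM-scaled library sizes. Where 3 values follow each other they belong to replicates 1, 2 and 3, and n is 3 in every group. Log2 changes are rootstock against intact and are given with their standard error. "Rose" and "fell" mean that a locus was higher or lower in the rootstock at an adjusted p under 0.05, from the two-sided quasi-likelihood test of edgeR, with p-values adjusted by Benjamini and Hochberg's method across 19476 loci. Beside a log2 change, values "without" a library are those that leaving it out moved by more than 1.5-fold. The 6 libraries held 20.46 to 29.34 M counts, within the 19.53 to 30.49 M of the series, with 0.961% to 1.44% in organelle loci and 7.18% to 9.76% in the 10 most counted loci. No more than 28 loci were seen in only 1 of these 6 libraries and in no other library of the series. Col-0 rootstock replicate 1, which enters the comparison of responses, had 2514 such loci. How the counting treated strand and overlaps is not given in the sources used here, so reads of overlapping or antisense loci cannot be told apart, and near-identical paralogs (LHCB1, XTH, EXLA and CASP members among those named) may share reads.

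The mutated genes were measured first. The labels do not name the mutated genes. From general knowledge of the line they are DOF6, HCA2, DOF2.1 and TMO6. DOF6 (AT3G45610) had 0 counts in the intact libraries and 1 count over the rootstock libraries. Col-0 had 0.965, 1.05 and 1.24 CPM in intact tissue and 1.5, 2.18 and 1.68 CPM in the rootstock. DOF6 was thus nearly absent from the mutant libraries, though the label does not name it. RNA of the other genes was still counted and rose below the junction. HCA2 (AT5G62940) on chromosome 5 had 45.5, 55.3 and 57.3 CPM in the rootstock and 8.04, 8.503 and 7.02 CPM in intact tissue (log2 change 2.75 ± 0.20, adjusted p 8.27e-12). TMO6 (AT5G60200) had 60.5, 84.1 and 81.9 CPM and 19.7, 19.1 and 19.8 CPM (log2 change 1.95 ± 0.20, adjusted p 3.12e-09). DOF2.1 (AT2G28510) on chromosome 2 had 129, 150.3 and 164 CPM and 30.55, 38.3 and 28.3 CPM (log2 change 2.19 ± 0.25, adjusted p 4.45e-08). For each of these genes all rootstock libraries lay above all intact libraries. Counts from outside a lesion are kept, so these levels say nothing of a working protein.

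Below the junction 4451 loci rose and 3395 fell, which is 22.9% and 17.4% of the 19476 tested, or 40.3% together. By at least 2-fold 2733 rose and 1960 fell. The libraries of the groups did not overlap in 7662 of the called loci and overlapped in 184. The median log2 change over all tested loci was 0.01, with 25% of loci below -0.54 and 75% below 0.62. Any list of genes is read against these shares, since about 2 in 5 loci were called.

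The rises at the top of the list were in genes nearly absent from intact hypocotyl. CEL3 (AT1G71380, also called GH9B3), a cellulase gene of the GH9 family, had 45.2, 45.4 and 37.2 CPM in the rootstock and 0.0509, 0 and 0 CPM in intact tissue, where its level is 1 count (CPM ratio 3358, 95% counting interval 602 to 132700). Ratios and bounds with a library left out use means of CPM, while those of all libraries pool counts. Part of a move can thus come from the formula. By means of CPM, CEL3 gave at least 836.7 without intact replicate 1, 1673 without intact replicate 2 and 1673 without intact replicate 3. GulLO2 (AT2G46750), an L-gulonolactone oxidase homologue, had 40.2, 16.6 and 15.97 CPM against 0 counts in intact tissue, at least 603-fold higher than a floor of 3 counts over the group (at least 372.8 without intact replicate 2). DIN2 (AT3G60140), a beta-glucosidase gene induced by dark and sugar shortage, varied more, at 139, 25.5 and 62.6 CPM in the rootstock and 0.102, 0.0308 and 0 CPM in intact tissue. Its CPM ratio was 1812 (619.7 to 8791). By means of CPM it was 995.6 without rootstock replicate 1, 4915 without intact replicate 1 and 1142 without intact replicate 3. For all of them the rootstock libraries stood apart from the intact libraries.

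The other top rises included a pair of class III peroxidases. The gene PRX52 (AT5G05340) had 129, 40.2 and 78.4 CPM in the rootstock and 0.458, 0.0616 and 0 CPM in intact tissue (log2 change 9.11 ± 0.97, adjusted p 1.05e-08; 11.05 without intact replicate 1; 8.52 without intact replicate 3), with a wide spread between rootstock libraries. PA2 (AT5G06720), another class III peroxidase, had 38.6, 30.7 and 31.6 CPM and 0.153, 0.0308 and 0 CPM (log2 change 9.21 ± 0.74, adjusted p 5.17e-11; 10.58 without intact replicate 1). GAD4 (AT2G02010), a glutamate decarboxylase, had 18.3, 15.9 and 22.1 CPM and 0.0509, 0.0616 and 0.0755 CPM (log2 change 8.10 ± 0.57, adjusted p 4.09e-12). These are levels of 1 or a few counts in intact tissue, so the size of the fold is loose. The remaining ones were the short-chain dehydrogenase SDR2 at 9.72, 14.1 and 12.2 CPM, the glycine-rich protein gene GRP9 at 10.7, 4.79 and 20.8 CPM, the glutathione transferase GSTU11 at 36.4, 25.7 and 35.3 CPM and ANAC071, described with the wound factors. Their intact libraries lay at or below 0.36 CPM.

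The deepest falls were in methionine-derived glucosinolate synthesis. CYP79F1 (AT1G16410), which turns chain-elongated methionine into aldoximes, had 32.2, 69.5 and 34.5 CPM in intact tissue and 0 counts in the rootstock, at least 1095-fold lower (at least 613.7 without rootstock replicate 2, at least 703.4 without rootstock replicate 3). BCAT4 (AT3G19710), the aminotransferase that starts methionine chain elongation, went from 30.4, 43.6 and 31.5 CPM to 0 counts, at least 821-fold lower (at least 475.9 without rootstock replicate 2). CYP83A1 (AT4G13770), the next enzyme after the aldoxime step, fell from 245, 347 and 259.5 CPM to 0.0523, 1.61 and 1.17 CPM (log2 change -8.16 ± 0.93, adjusted p 3.69e-08; -8.81 without rootstock replicate 2). CYP79F2 fell from 52.7, 74.3 and 50.7 CPM to 0, 0.329 and 0.4202 CPM. BASS5, a plastid carrier of the pathway, and AK3, an aspartate kinase gene, went from 13.4, 26.6 and 18.9 and from 23.3, 58.7 and 18.5 CPM to 1 count each in the rootstock libraries. As with the rises, these genes were chosen with the libraries of the groups apart.

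Other deep falls lay outside that pathway. TLL1 (AT1G45201), a lipase-like gene, fell from 455, 456 and 536 CPM to 2.3, 1.35 and 1.12 CPM (log2 change -8.26 ± 0.45, adjusted p 4.27e-14). GER3 (AT5G20630), a germin-like protein gene, fell from 43.4, 44.9 and 59.8 CPM to 0.157, 0.0366 and 0.2801 CPM (log2 change -8.32 ± 0.73, adjusted p 2.32e-10; -9.06 without rootstock replicate 3). NAS1, a nicotianamine synthase gene of metal transport, fell from 19.2, 16.5 and 13.2 CPM to 0.0523, 0.0366 and 0.1401 CPM. BGLU33, a beta-glucosidase gene, fell from 10.1, 12.9 and 8.99 CPM to 1 count over the rootstock. They too were chosen with the groups apart.

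**Figure D1:**
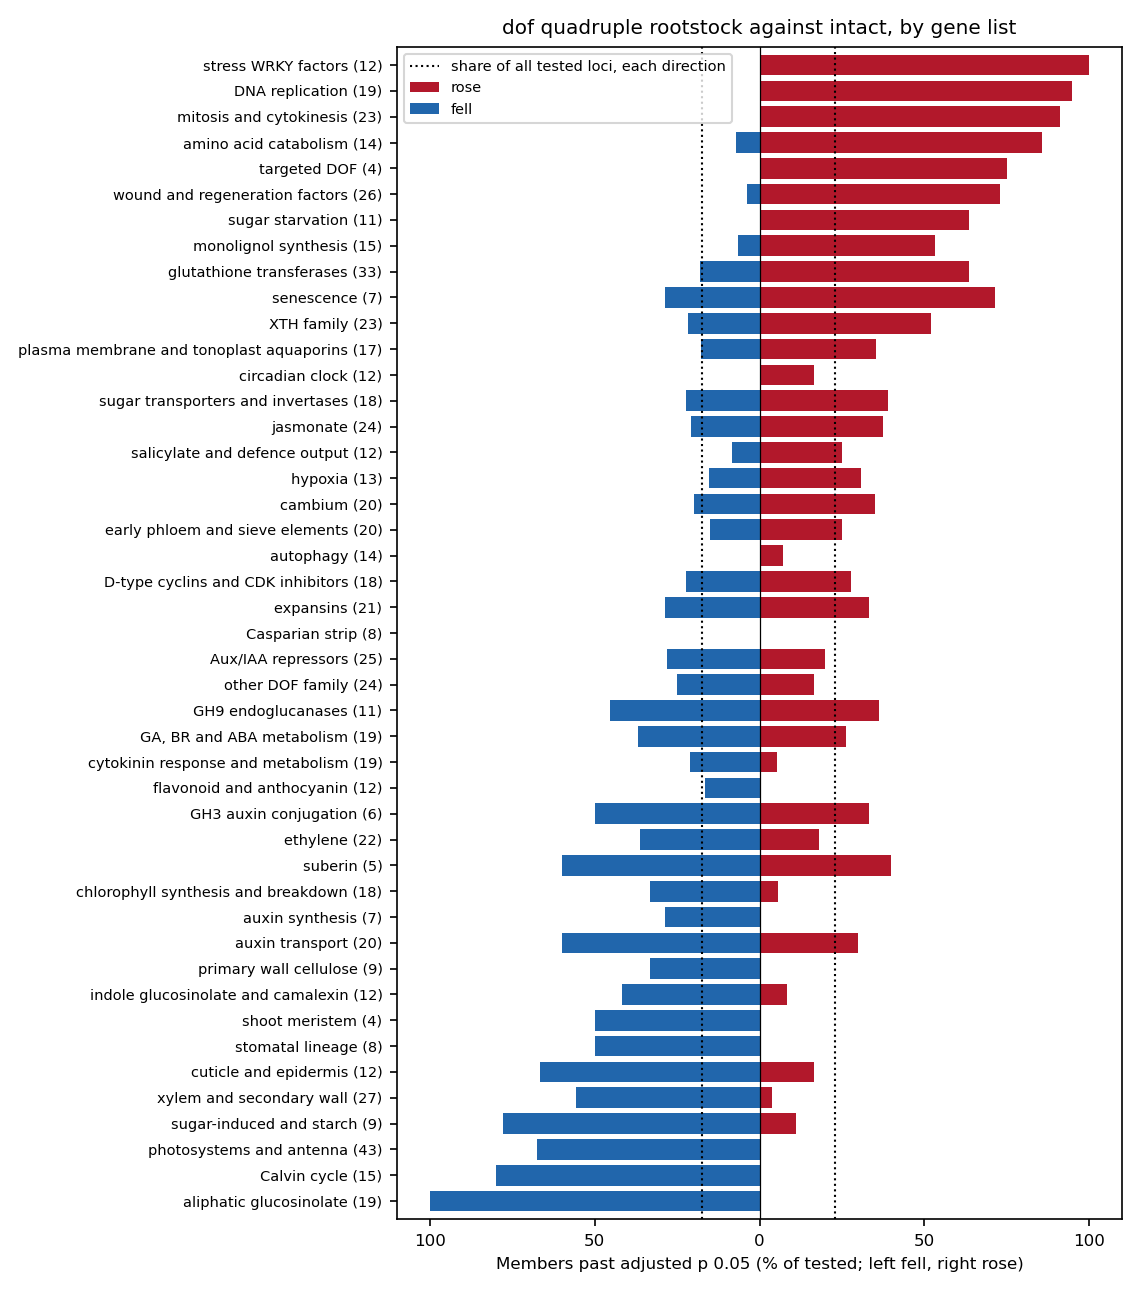
Share of the tested members of 45 gene lists that rose (right, red) or fell (left, blue) in the dof quadruple rootstock against its intact hypocotyl, with the number tested in parentheses. Dotted lines mark the shares over all 19476 loci, 22.9% and 17.4%. Stress WRKY factors, DNA replication and mitosis lie at the top, and aliphatic glucosinolate, Calvin cycle and photosystem genes at the bottom.

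Transcription factors of wounding and regeneration were mostly higher below the junction. Of 26 tested members of 32, 19 rose and 1 fell, with a median log2 change of 2.32. ANAC071 (AT4G17980), a NAC factor that promotes tissue joining in cut Arabidopsis stems, had 9.57, 14.2 and 14.01 CPM in the rootstock and 0.0509, 0.0616 and 0 CPM in intact tissue (CPM ratio 336, 115 to 1634). Its partner ANAC096 (AT5G46590) had 30.1, 36.6 and 33.99 CPM and 0.611, 1.17 and 1.17 CPM (log2 change 5.05 ± 0.35, adjusted p 1.99e-12). ERF115 (AT5G07310), an AP2/ERF factor of wound-driven cell division and stem cell replenishment, had 16.99, 14.8 and 16.3 CPM and 0.255, 0.339 and 0.491 CPM (log2 change 5.43 ± 0.39, adjusted p 1.04e-11). In all of them the lowest rootstock library was far above the highest intact library.

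ERF114 (AT5G61890), the closest relative of ERF115 among those listed, had 53.9, 54.2 and 55.6 CPM in the rootstock and 3.61, 1.11 and 1.25 CPM in intact tissue (log2 change 4.83 ± 0.44, adjusted p 4.41e-10; 5.53 without intact replicate 1). Its rootstock libraries were nearly equal, while intact replicate 1 stood above the other intact libraries. RAP2.6L (AT5G13330), an AP2/ERF factor active below the cut in wounded Arabidopsis stems, rose from 7.84, 7.49 and 6.38 CPM to 104, 77.7 and 97.1 CPM (log2 change 3.68 ± 0.25, adjusted p 1.8e-12). HSFB1 (AT4G36990), a heat shock factor, rose from 21.03, 14.9 and 21.2 CPM to 219.9, 178 and 167 CPM (log2 change 3.31 ± 0.28, adjusted p 9.91e-11). LBD18, an auxin-induced factor of lateral root formation, was the member that fell, from 0.611, 0.986 and 0.453 CPM to 0, 0.219 and 0.0934 CPM, levels of few counts. Its call was lost without rootstock replicate 1 or 3 or intact replicate 1 or 2 (adjusted p 0.0507 to 0.139). PAT1, a GRAS factor and the member with the highest mean among those that did not pass, had 216, 199 and 213 CPM and 183, 182 and 189.5 CPM.

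The rest of the DOF family moved both ways. Of 24 tested members of 30, 4 rose and 6 fell (3 without rootstock replicate 1), close to the shares over all loci, with a median of -0.28. OBP1 (AT3G50410), a DOF factor tied to cell cycle re-entry, rose from 4.53, 3.605 and 4.53 CPM to 42.6, 45.1 and 64.1 CPM (log2 change 3.59 ± 0.29, adjusted p 4.84e-11). DAG1, a repressor of seed germination, rose from 9.88, 11.2 and 8.46 CPM to 40.6, 37.1 and 39.7 CPM (log2 change 1.99 ± 0.18, adjusted p 4.16e-10), and DOF1 (AT1G51700) from 28.6, 28.2 and 30.6 CPM to 118, 121 and 101 CPM (log2 change 1.96 ± 0.22, adjusted p 2.34e-08). The cycling DOF factor CDF5, a flowering repressor, rose at low levels, from 0.458, 0.431 and 0.151 CPM to 1.25, 3.84 and 2.99 CPM. DOF1.4 fell from 24.8, 23.2 and 26.7 CPM to 8.57, 8.55 and 11.6 CPM (log2 change -1.38 ± 0.19, adjusted p 1.15e-06), and DOF2.2 from 23.9, 24.3 and 20.5 CPM to 11.1, 13.1 and 14.4 CPM. OBP4 did not pass, with 131, 154 and 173 CPM in the rootstock and 198, 164 and 189 CPM in intact tissue, where the groups overlapped.

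Cambium genes split. Of 20 tested members 7 rose and 4 fell, with a median of 0.1, beside 22.9% and 17.4% of all loci. LBD11 (AT2G28500), a LOB-domain factor of the cambium, rose from 3.004, 0.647 and 0.604 CPM to 162, 178 and 167 CPM (log2 change 6.98 ± 0.52, adjusted p 1e-11; 8.06 without intact replicate 1). WOX4 (AT1G46480), a homeobox factor that keeps cambium cells dividing, rose from 6.57, 6.65 and 5.82 CPM to 17.1, 18.1 and 15.03 CPM (log2 change 1.4 ± 0.19, adjusted p 5.85e-07). CLE44, which encodes the TDIF peptide perceived in the cambium, rose from 1.17, 0.308 and 0.755 CPM to 11.4, 8.12 and 7.47 CPM (log2 change 3.64 ± 0.41, adjusted p 2.13e-08). SMXL5, a phloem-forming regulator, rose from 53.1, 48.4 and 53.6 CPM to 131, 141 and 148 CPM (log2 change 1.44 ± 0.14, adjusted p 1.16e-09). Every rootstock library of these genes exceeded every intact library. ER (ERECTA, AT2G26330), a receptor kinase of stem growth, fell from 61.2, 59.8 and 47.2 CPM to 5.75, 3.95 and 5.65 CPM (log2 change -3.46 ± 0.22, adjusted p 3.45e-13). TMO5, a bHLH factor of vascular cell division, fell from 15.7, 15.7 and 16.2 CPM to 3.82, 5.67 and 4.39 CPM (log2 change -1.77 ± 0.29, adjusted p 1.23e-05). HAM4 fell from 21.6, 17.2 and 19.7 CPM to 9.77, 9.798 and 9.52 CPM. KNAT1 fell from 151, 242 and 218 CPM to 83, 114 and 105 CPM. LHW, the partner of TMO5, did not pass, at 34.5, 44.3 and 41.5 CPM in the rootstock and 44.3, 71.3 and 64.9 CPM in intact tissue. It passed without intact replicate 1 (adjusted p 0.044) and in a fit of the compared groups alone (adjusted p 0.0156).

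The summed level of 21 phloem genes was 730.6 to 793.7 CPM in the rootstock and 574.4 to 720.3 CPM in intact tissue, but members moved both ways, with 5 of 20 tested members higher, 3 lower and a median of 0.09. Both counts are close to the shares over all loci, 22.9% and 17.4%. The count of rises was 3 without intact replicate 1 or rootstock replicate 3, and that of falls 1 without intact replicate 2 or rootstock replicate 1 and 0 without rootstock replicate 3. OPS (OCTOPUS, AT3G09070), a membrane protein of phloem precursor cells, rose from 20.6, 21.5 and 21.2 CPM to 124, 138 and 143 CPM (log2 change 2.68 ± 0.15, adjusted p 4.27e-14). SWEET11 (AT3G48740), a sucrose exporter of phloem parenchyma, rose from 59.4, 39.99 and 48.4 CPM to 129, 152 and 171 CPM (log2 change 1.62 ± 0.27, adjusted p 1.83e-05). CALS7, the callose synthase of sieve plates, rose from 1.17, 2.03 and 1.59 CPM to 4.39, 3.51 and 3.87 CPM. SUC2 (AT1G22710), the sucrose loader of companion cells, fell from 160.3, 108 and 113 CPM to 73.8, 97.8 and 66.5 CPM (log2 change -0.68 ± 0.22, adjusted p 0.0148), a call that was lost without rootstock replicate 1 or 3 or intact replicate 1 (adjusted p 0.0602 to 0.116). PP2-A1, a phloem lectin, was at 40.9, 44.5 and 39.1 CPM against 57.7, 60.3 and 54.2 CPM and NEN1, a nuclease of sieve element enucleation, at 6.32, 5.34 and 4.72 CPM against 5.91, 8.69 and 9.78 CPM. Both were called lower with all libraries. The call of PP2-A1 was lost without rootstock replicate 1 or 3 or intact replicate 2 (adjusted p 0.0581 to 0.0713), and that of NEN1 without rootstock replicate 2 or 3 or intact replicate 2 or 3 (adjusted p 0.0889 to 0.188). The receptor kinase BAM3 (67.4, 77.5 and 69 CPM and 84.7, 80.5 and 95.6 CPM) did not pass.

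Xylem and secondary wall genes were lower, with 15 of 27 tested members falling, 1 rising and a median of -1.64. In bulk tissue, fewer cells of a type and less RNA per cell cannot be told apart. The summed level of the 30 listed genes was 139.4 to 163.7 CPM in the rootstock and 306.2 to 408.2 CPM in intact tissue, with 3 at 0 in each group. ACL5 (AT5G19530), the thermospermine synthase that restrains xylem formation, fell from 88.1, 78.9 and 76.7 CPM to 6.43, 8.99 and 9.34 CPM (log2 change -3.3 ± 0.46, adjusted p 1.05e-06). XCP2 (AT1G20850), a cysteine peptidase of dying vessel cells, fell from 62.7, 83.2 and 47.02 CPM to 17.9, 18.9 and 12.1 CPM (log2 change -1.98 ± 0.33, adjusted p 1.78e-05), whereas its relative XCP1 had 21.7, 17.7 and 15.2 CPM against 26.4, 35.98 and 18.7 CPM, overlapped between groups and did not pass. XCP1 passed in a fit of the compared groups alone (adjusted p 0.0459). The vessel switch VND3 fell from 5.35, 5.27 and 4.68 CPM to 1.202, 1.46 and 1.401 CPM. VND4 fell from 3.51, 6.22 and 3.59 CPM to 1.41, 1.17 and 1.31 CPM. FRA8 (AT2G28110), a glycosyltransferase of xylan synthesis, was the member that rose, from 1.53, 3.36 and 2.98 CPM to 49.97, 42.3 and 34.9 CPM (log2 change 3.99 ± 0.39, adjusted p 2.65e-09).

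Genes of monolignol synthesis, which make lignin precursors, rose in 8 of 15 cases and fell in 1, with a median of 0.69. CAD5 (AT4G34230), a cinnamyl alcohol dehydrogenase of the last step, rose from 77.9, 48.4 and 54.6 CPM to 740.4, 638 and 649 CPM (log2 change 3.49 ± 0.23, adjusted p 1.08e-12). At the entry of the pathway PAL1 rose from 184, 127 and 149 CPM to 535, 366 and 398 CPM. PAL2 rose from 181, 101 and 127 CPM to 370.0, 304 and 290.1 CPM. C4H rose from 243, 167 and 236 CPM to 865, 614 and 721 CPM. PAL3 fell from 144, 126 and 139 CPM to 17.9, 26.6 and 28.2 CPM (log2 change -2.49 ± 0.20, adjusted p 6.28e-11). CAD4 did not pass, with 342, 361 and 404 CPM against 228, 188 and 271 CPM, but did in a fit of the compared groups alone (adjusted p 0.00825).

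**Figure D2:**
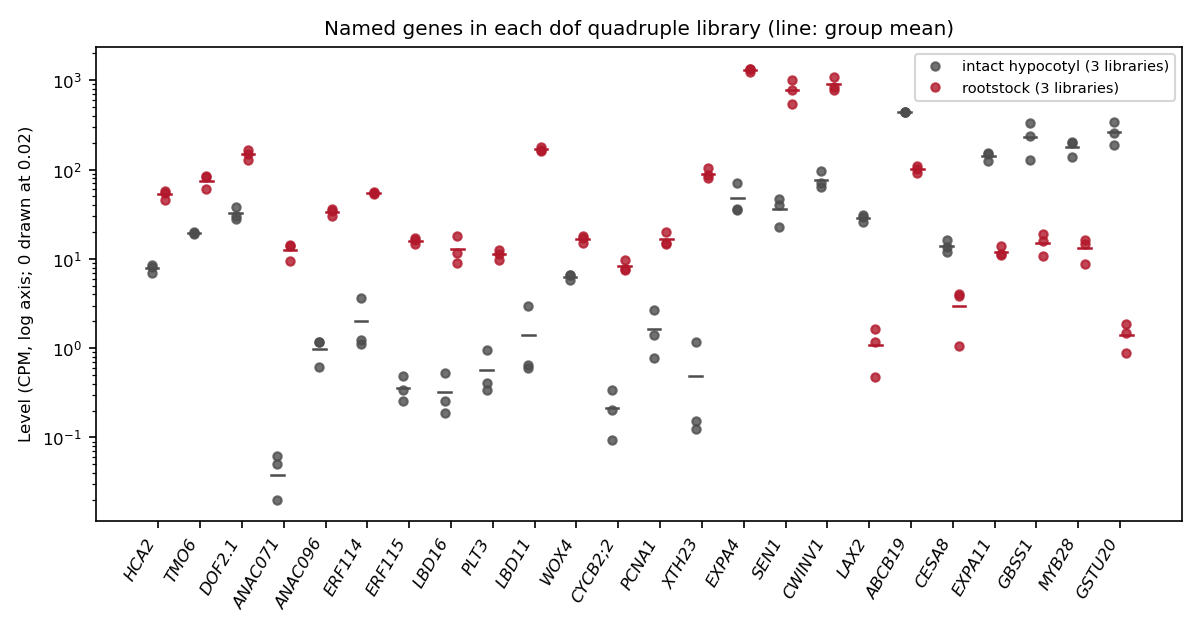
Level of 24 named genes in each intact (grey) and rootstock (red) library of dof quadruple, in CPM on a log axis, with a line at the group mean. The groups stand apart in every gene drawn, with the rootstock above for HCA2 to CWINV1 and below for LAX2 to GSTU20.

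Genes of the cell cycle rose nearly as a whole. Of 19 tested DNA replication genes 18 rose and none fell (median 2.1), and of 23 genes of mitosis and cytokinesis 21 rose and none fell (median 2.83). PCNA1 (AT1G07370), the sliding clamp of DNA polymerase, rose from 2.699, 0.7702 and 1.397 CPM to 19.9, 15.03 and 14.6 CPM (log2 change 3.39 ± 0.29, adjusted p 1.39e-10). The ribonucleotide reductase genes RNR1 and TSO2, which supply deoxynucleotides, rose from 12.7, 8.63 and 11.6 CPM to 38.2, 33.7 and 35.1 CPM and from 10.5, 7.55 and 12.6 CPM to 43.96, 40.1 and 47.1 CPM. MCM4 (AT2G16440) and MCM7 (AT4G02060), subunits of the replicative helicase, rose from 2.65, 1.85 and 1.74 CPM to 13.96, 9.396 and 10.7 CPM (log2 change 2.46 ± 0.27, adjusted p 1.38e-08) and from 2.14, 2.06 and 2.68 CPM to 13.3, 13.1 and 10.7 CPM (log2 change 2.43 ± 0.30, adjusted p 1.78e-07). FAS1, the largest subunit of the chromatin assembly factor CAF-1, did not pass, at 4.23, 8.08 and 7.52 CPM against 3.05, 3.173 and 4.796 CPM, and passed in a fit of the compared groups alone (adjusted p 0.0425). The B-type cyclin CYCB2;2 (AT4G35620) rose from 0.204, 0.0924 and 0.3399 CPM to 9.77, 7.46 and 7.61 CPM (log2 change 5.29 ± 0.42, adjusted p 2.86e-11), and the mitotic kinase gene CDKB2;1 (AT1G76540) from 3.67, 2.095 and 3.55 CPM to 40.5, 34.5 and 30.1 CPM (log2 change 3.5 ± 0.30, adjusted p 1.57e-10). CYCB1;4 rose from 2.34, 2.06 and 2.87 CPM to 24.4, 23.6 and 22.9 CPM, CDKB2;2 from 1.83, 0.585 and 1.17 CPM to 15.6, 13.1 and 11.3 CPM and CYCB2;4 from 1.43, 0.555 and 0.793 CPM to 8.05, 9.58 and 7.52 CPM. The phragmoplast kinesin gene TES (4.6, 5.34 and 4.995 CPM against 6.16, 5.27 and 4.796 CPM) overlapped between groups and did not pass.

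Nearly all members of these lists rose together, so promoters of some are shown. E2F factors bind sites such as TTTCCCGC or TTTGGCGC before S-phase genes, and MYB3R factors bind the core AACGG before G2/M genes. In RefSeq TAIR10.1, 6 of the 19 replication genes (31.6%) have either E2F site in the 250 bases before the annotated start, on either strand, against 263 of 27443 protein-coding loci (0.958%). AACGG stands there in 14 of the 23 mitosis genes (60.9%), against 5645 of 27443 loci (20.6%). Of the 6 replication genes with a site 5 rose, and of the 13 without one 13 rose. Of the 14 mitosis genes with AACGG 12 rose, and of the 9 without it 9 rose. With 1 and 2 members that did not rise, all of them among those with the motif, the groups with and without it could not be compared. The promoters of genes named above that hold a motif are given 5′ to 3′ on the gene's strand, with capitals for the motif or its reverse complement. MCM4 lies before the minus-strand gene at chr2:7130730-7130979, FAS1 at chr1:24324092-24324341 (minus), CYCB2;2 at chr4:16901346-16901595 (plus), CDKB2;2 at chr1:7294747-7294996 (minus) and TES at chr3:15190536-15190785 (plus).
MCM4: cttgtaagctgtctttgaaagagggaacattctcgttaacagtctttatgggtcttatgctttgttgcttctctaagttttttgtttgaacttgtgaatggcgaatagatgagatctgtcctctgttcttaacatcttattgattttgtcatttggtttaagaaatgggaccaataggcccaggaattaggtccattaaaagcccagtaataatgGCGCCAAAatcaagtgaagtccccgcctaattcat
FAS1: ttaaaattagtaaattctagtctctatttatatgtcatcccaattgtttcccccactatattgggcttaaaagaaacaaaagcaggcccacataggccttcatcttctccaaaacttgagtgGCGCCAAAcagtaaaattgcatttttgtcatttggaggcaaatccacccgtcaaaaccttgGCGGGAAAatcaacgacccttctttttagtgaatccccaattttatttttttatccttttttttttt
CYCB2;2: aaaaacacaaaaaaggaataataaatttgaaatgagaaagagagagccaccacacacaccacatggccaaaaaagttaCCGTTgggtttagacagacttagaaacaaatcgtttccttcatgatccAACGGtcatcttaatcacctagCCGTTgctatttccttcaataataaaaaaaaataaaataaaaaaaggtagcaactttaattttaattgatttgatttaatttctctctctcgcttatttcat
CDKB2;2: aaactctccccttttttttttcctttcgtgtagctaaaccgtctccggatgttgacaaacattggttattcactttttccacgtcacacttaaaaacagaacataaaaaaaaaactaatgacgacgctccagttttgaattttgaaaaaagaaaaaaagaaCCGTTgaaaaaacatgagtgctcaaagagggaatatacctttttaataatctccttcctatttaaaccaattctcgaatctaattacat
TES: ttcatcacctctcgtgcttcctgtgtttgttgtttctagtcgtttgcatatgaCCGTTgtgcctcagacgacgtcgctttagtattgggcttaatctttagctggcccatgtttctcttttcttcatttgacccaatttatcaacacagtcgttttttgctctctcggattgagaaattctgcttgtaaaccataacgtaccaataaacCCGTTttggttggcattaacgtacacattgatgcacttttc

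FAS1, which did not pass, holds 2 E2F sites, and MCM4, which rose, holds 1. TES, which did not pass, holds 2 AACGG cores, CYCB2;2, which rose, 3, and CDKB2;2, which rose, 1. Among regulators that act before S phase the picture was mixed: of 18 tested D-type cyclins and CDK inhibitors, 5 rose (3 without rootstock replicate 3) and 4 fell (median 0.08). Both counts are near the shares over all loci, 22.9% and 17.4%. The cyclin CYCD3;1 rose from 12.3, 10.1 and 11.9 CPM to 20.4, 24.6 and 22.7 CPM (log2 change 0.98 ± 0.18, adjusted p 8.6e-05), and CYCD4;1 from 0.713, 0.401 and 0.3399 CPM to 2.82, 1.54 and 1.26 CPM. CDK inhibitors moved both ways: KRP5 and KRP6 rose, with log2 changes of 1.01 ± 0.32 and 0.67 ± 0.18. KRP5 lost its call without rootstock replicate 3 or intact replicate 3 (adjusted p 0.0605 to 0.0626). KRP2 fell from 64.2, 65.7 and 69.5 CPM to 16.4, 24.9 and 21.1 CPM (log2 change -1.67 ± 0.18, adjusted p 6.75e-09). KRP4 fell from 27.7, 32.8 and 35.6 CPM to 11.5, 11.6 and 17.8 CPM (log2 change -1.23 ± 0.16, adjusted p 4.11e-07). KRP7 fell from 2.75, 4.74 and 3.47 CPM to 0.679, 0.512 and 0.467 CPM. SMR1 fell from 5.19, 3.76 and 6.65 CPM to 3.08, 2.27 and 3.175 CPM. The call of SMR1 was lost without rootstock replicate 1, 2 or 3 or intact replicate 1 or 3 (adjusted p 0.0509 to 0.17).

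Genes that remodel the primary wall changed by family member. XTH enzymes cut and rejoin xyloglucan, and of 23 tested genes 12 rose and 5 fell (median 1.55). XTH24 (AT4G30270) rose from 36.4, 15.3 and 17.4 CPM to 2755, 1375 and 1251 CPM (log2 change 6.29 ± 0.54, adjusted p 1.95e-10). XTH19 (AT4G30290) rose from 1.73, 0.555 and 0.718 CPM to 151, 185 and 208 CPM (log2 change 7.57 ± 0.68, adjusted p 3.65e-10; 8.16 without intact replicate 1) and XTH23 (AT4G25810) from 1.17, 0.123 and 0.151 CPM to 87.6, 103 and 80.7 CPM (log2 change 7.73 ± 0.66, adjusted p 1.69e-10; 9.33 without intact replicate 1). XTH18 and XTH27 also rose, to 27.5, 26.1 and 21.6 CPM and 201, 179.9 and 165 CPM. XTH4, XTH6, XTH7, XTH31 and XTH32 fell, XTH7 from 1308, 1060.4 and 1342 CPM to 238, 226 and 254 CPM (log2 change -2.37 ± 0.27, adjusted p 2.68e-08). XTH4 fell from 3176, 2256 and 2116 CPM to 1043, 1184 and 1159 CPM (log2 change -1.16 ± 0.33, adjusted p 0.00577). The groups stood apart in each of these genes.

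Expansins, which loosen walls without cutting them, rose in 7 and fell in 6 of 21 tested genes (median 0.75). Of all loci, 22.9% rose and 17.4% fell, and the GH9 counts below stand beside the same shares. EXPA4 (AT2G39700) rose from 70.4, 36.6 and 35.7 CPM to 1355, 1236 and 1347 CPM (log2 change 4.79 ± 0.29, adjusted p 2.38e-13), and the expansin-like genes EXLA1 and EXLA2 to 29.8, 27.9 and 25.6 CPM and 28.1, 35.2 and 30.3 CPM from 1.43, 0.832 and 0.944 CPM and 0.916, 2.003 and 1.32 CPM. EXPA3 fell from 279, 398 and 363 CPM to 49.3, 57.1 and 55.5 CPM (log2 change -2.68 ± 0.29, adjusted p 1.04e-08). EXPA5 fell from 36.3, 33.7 and 26.2 CPM to 2.46, 3.55 and 2.19 CPM. EXPA11 fell from 124, 149.6 and 153 CPM to 11.4, 11.01 and 13.8 CPM (log2 change -3.56 ± 0.50, adjusted p 1.24e-06). EXPA15, EXPB1 and EXPA8 fell too, with log2 changes of -3.15 ± 0.56, -4.41 ± 1.19 (-6.35 without rootstock replicate 2) and -1.66 ± 0.51. The call of EXPA8 was lost without rootstock replicate 1 or intact replicate 2 (adjusted p 0.0515 to 0.0612). Of 11 tested endoglucanases of the GH9 list, which does not hold CEL3, 4 rose and 5 fell (3 without intact replicate 1 or 3 and 2 without rootstock replicate 1 or 2), with a median of -0.03. GH9B1 rose from 16.4, 19.04 and 16.99 CPM to 38.2, 34.5 and 42.1 CPM. GH9B6 rose from 0.153, 0 and 0 CPM to 2.14, 1.83 and 1.17 CPM (log2 change 5.24 ± 0.95, adjusted p 5.26e-05; 8.40 without intact replicate 1; 4.55 without intact replicate 2), and GH9A3 and GH9C2 with log2 changes of 2.76 ± 0.52 (3.42 without intact replicate 1) and 1.54 ± 0.30. Among the falls was GH9B8, going from 79.3, 25.3 and 79.3 CPM to 0.836, 2.16 and 0.887 CPM (log2 change -5.52 ± 0.69, adjusted p 1.9e-07; -6.14 without rootstock replicate 2). Of 9 genes of primary wall cellulose synthesis none rose and 3 fell (1 without intact replicate 1), with a median of -0.34. CESA6 fell from 503, 465 and 494 CPM to 317, 399.7 and 279 CPM (log2 change -0.55 ± 0.13, adjusted p 0.00101). CTL1, a chitinase-like gene of cellulose assembly, fell (log2 change -0.78 ± 0.25), a call lost without intact replicate 1 (adjusted p 0.0627). CESA5 fell (log2 change -0.48 ± 0.19), a call lost without rootstock replicate 1 or 3 or intact replicate 1 or 3 (adjusted p 0.0816 to 0.18).

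Hormone genes were followed from synthesis to response. Jasmonate genes rose in 9 and fell in 5 of 24 cases (median -0.03), beside 22.9% and 17.4% of all loci. AOC3, an allene oxide cyclase, rose from 1.43, 1.05 and 2.38 CPM to 24.5, 24.9 and 21.7 CPM (log2 change 3.87 ± 0.37, adjusted p 1.52e-09). CYP94B3, which breaks down active jasmonate, rose from 0.102, 0.0616 and 0.0378 CPM to 10.5, 5.16 and 6.44 CPM (log2 change 6.73 ± 0.82, adjusted p 1.05e-07). AOC4 fell from 33.8, 30.99 and 32.6 CPM to 13.1, 9.21 and 8.54 CPM (log2 change -1.66 ± 0.22, adjusted p 5.35e-07). OPR3, of a later synthesis step, fell from 50.2, 44.9 and 42.7 CPM to 22.3, 16.7 and 15.9 CPM (log2 change -1.33 ± 0.19, adjusted p 2.05e-06). The output gene VSP2 fell from 3.41, 3.05 and 0.906 CPM to 0.157, 0.402 and 0.0467 CPM. Ethylene genes rose in 4 and fell in 8 of 22 cases (5 without intact replicate 2 or 3 or rootstock replicate 2), with a median of 0. The 4 rises were ACC synthases, the limiting step of ethylene synthesis. ACS7 (AT4G26200) rose from 1.17, 0.216 and 0.264 CPM to 22.5, 19.2 and 16.4 CPM (log2 change 5.26 ± 0.46, adjusted p 1.21e-09; 6.32 without intact replicate 1). ACS2 (AT1G01480) rose from 1.78, 0.739 and 0.906 CPM to 31.7, 21.3 and 25.9 CPM (log2 change 4.56 ± 0.54, adjusted p 7.11e-08). ACS6 rose from 9.47, 8.84 and 9.74 CPM to 34.9, 33.2 and 31.8 CPM. ACS8 had 0.209, 0.329 and 0.187 CPM against 0 counts, at least 6.56-fold higher (at least 3.716 without intact replicate 2, at least 4.196 without intact replicate 3). ACO4 of the last synthesis step fell from 285, 279 and 356 CPM to 136, 89.6 and 159.8 CPM. The receptor gene ERS2 fell from 20.4, 29.6 and 29.9 CPM to 9.98, 8.88 and 11.2 CPM. The response factor EIL1 fell from 161, 187 and 194 CPM to 92.2, 100.1 and 119 CPM.

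Auxin transport genes leaned down, with 12 of 20 falling and 6 rising (median -0.95). LAX2 (AT2G21050), an auxin influx carrier of vascular cells, fell from 30.6, 25.8 and 29.5 CPM to 0.4704, 1.17 and 1.63 CPM (log2 change -4.69 ± 0.45, adjusted p 1.42e-09). ABCB19 (AT3G28860), an exporter of long-distance stem transport, fell from 446, 441 and 439 CPM to 90.6, 109 and 103 CPM (log2 change -2.13 ± 0.19, adjusted p 2.29e-10). The exporter PIN7 fell from 297, 352 and 305 CPM to 135, 149 and 146 CPM (log2 change -1.15 ± 0.13, adjusted p 1.63e-08). In all of them the libraries of the groups were far apart. Rises were in ABCB1, from 240.4, 228 and 250.2 CPM to 379, 446 and 385 CPM, ABCB4, from 67.5, 56.7 and 46 CPM to 181, 168 and 129 CPM, the kinase gene PID, from 11.05, 13.1 and 11.6 CPM to 21.2, 25.1 and 24.1 CPM, and the endoplasmic reticulum carriers PILS3 and PILS5, PILS5 from 11.1, 7.18 and 3.66 CPM to 38.4, 25.3 and 26.8 CPM (log2 change 2.05 ± 0.31, adjusted p 3.58e-06). PIN2, best known from the root tip, had 3.45, 1.21 and 1.21 CPM against 0.713, 0.585 and 0.491 CPM (log2 change 1.70 ± 0.65, adjusted p 0.0374; 1.02 without rootstock replicate 1) and lost its call without rootstock replicate 1 or intact replicate 1, 2 or 3 (adjusted p 0.0587 to 0.279) and without the low-count filter (adjusted p 0.0537).

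Aux/IAA repressors, early outputs of auxin, rose in 5 and fell in 7 of 25 cases (4 without rootstock replicate 1), with a median of 0. The share of rises was near that over all loci, of which 22.9% rose and 17.4% fell. IAA26 rose from 29.8, 34.1 and 32.9 CPM to 52.1, 66.98 and 68.7 CPM. IAA28 rose from 22.7, 21.1 and 25.1 CPM to 40.98, 32.1 and 40.2 CPM. IAA27 fell from 139, 109 and 118 CPM to 39.6, 37.99 and 37.4 CPM (log2 change -1.67 ± 0.24, adjusted p 1.25e-06). IAA29 fell from 5.804, 7.64 and 6.57 CPM to 1.46, 1.17 and 1.96 CPM. Of 6 tested genes of auxin conjugation and oxidation 2 rose and 3 fell (median -0.93). GH3.17 rose from 59.1, 51.2 and 72.8 CPM to 92.5, 117 and 127 CPM. DAO1, an auxin oxidase, rose from 19.8, 16.4 and 12.8 CPM to 36.5, 25.6 and 24.2 CPM, and GH3.9, WES1 and DFL1 fell, WES1 (GH3.5) from 51.8, 70.5 and 76.8 CPM to 40.7, 36.9 and 34.1 CPM. DFL1 lost its call without rootstock replicate 1 (adjusted p 0.0672). Of 7 tested auxin synthesis genes none rose and 2 fell, with TAR2 going from 7.54, 7.39 and 9.71 CPM to 3.24, 2.63 and 2.33 CPM (log2 change -1.59 ± 0.28, adjusted p 2.89e-05). The other, YUC3, had 0, 0.0366 and 0 CPM against 0, 0.832 and 0.151 CPM and lost its call without rootstock replicate 1, 2 or 3 or intact replicate 2 (adjusted p 0.0634 to 0.422), without the low-count filter (adjusted p 0.0681), with replicate number as a block (adjusted p 0.0519) and in DESeq2 (adjusted p 0.067).

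Cytokinin genes rose in 1 and fell in 4 of 19 cases (median -0.33), beside 22.9% and 17.4% of all loci. LOG5 and LOG1, which release active cytokinin, fell from 6.16, 8.75 and 8.84 CPM to 0.261, 0.622 and 0.2801 CPM (log2 change -4.29 ± 0.54, adjusted p 1.77e-07) and from 6.47, 7.46 and 7.44 CPM to 2.14, 2.63 and 2.101 CPM. IPT5 of cytokinin synthesis fell from 6.36, 5.15 and 7.97 CPM to 1.99, 1.61 and 1.31 CPM. The rise was CKX3, a cytokinin oxidase gene, at 0.418, 0.183 and 0.1401 CPM against 0.0509, 0 and 0 CPM, a call lost without rootstock replicate 1 or 2 or intact replicate 2 or 3 (adjusted p 0.0576 to 0.156), with upper-quartile scaling (adjusted p 0.0501), without the low-count filter (adjusted p 0.0756) and with replicate number as a block (adjusted p 0.0515). Of 19 genes of gibberellin, brassinosteroid and abscisic acid metabolism 5 rose and 7 fell (median -0.27). Gibberellin inactivation genes moved both ways, with GA2OX2, GA2OX4 and GA2OX6 among the rises and GA2OX1 among the falls. GA2OX2 (AT1G30040) rose from 4.28, 3.73 and 4.87 CPM to 41.9, 42.2 and 44.2 CPM (log2 change 3.32 ± 0.19, adjusted p 8.34e-14). GA2OX6 rose from 4.74, 6.13 and 3.47 CPM to 23.7, 23.7 and 15.8 CPM. GA20OX2 fell from 7.74, 9.09 and 11.6 CPM to 0.784, 1.46 and 1.31 CPM (log2 change -2.98 ± 0.39, adjusted p 4.08e-07). GA3OX1 fell from 5.65, 5.39 and 4.27 CPM to 0.366, 0.512 and 0.467 CPM. NCED3, the abscisic acid synthesis gene of drought, rose from 0.305, 0.431 and 0.604 CPM to 2.51, 4.72 and 3.175 CPM.

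Genes that respond to sugar shortage rose below the junction. Of 11 tested members 7 rose and none fell (median 1.47). SEN1 (AT4G35770, also DIN1) rose from 46.7, 40.1 and 22.8 CPM to 999, 537 and 785 CPM (log2 change 4.41 ± 0.61, adjusted p 1.03e-06). BGAL4 (AT5G56870), a beta-galactosidase, rose from 59.7, 75.2 and 31.7 CPM to 1717, 800.4 and 967 CPM (log2 change 4.39 ± 0.70, adjusted p 8.6e-06). DIN10 (AT5G20250), a raffinose synthase homologue, rose from 92.6, 135 and 93.1 CPM to 1081, 647 and 739 CPM (log2 change 2.94 ± 0.53, adjusted p 4.42e-05). DIN4, a subunit of branched-chain keto acid dehydrogenase, rose from 19.4, 17.5 and 12.9 CPM to 87.6, 55.1 and 67.3 CPM. In each of them rootstock replicate 1 was the highest library, and all rootstock libraries lay above all intact ones. ASN1, an asparagine synthetase gene of the same response, did not pass at 362, 189.9 and 345 CPM against 188, 141 and 102 CPM, and passed in a fit of the compared groups alone (adjusted p 0.0125).

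Amino acid breakdown genes, which supply respiration when sugar is short, rose in 12 of 14 cases and fell in 1 (median 1.01). IVD (AT3G45300), isovaleryl-CoA dehydrogenase, rose from 70.7, 56.3 and 41.9 CPM to 442, 205 and 310.1 CPM (log2 change 2.50 ± 0.27, adjusted p 1.54e-08). GDH2, a glutamate dehydrogenase, rose from 102, 78.2 and 53.02 CPM to 632, 356 and 376 CPM (log2 change 2.55 ± 0.43, adjusted p 1.76e-05). ERD5, a proline dehydrogenase, rose from 49.03, 135 and 134 CPM to 499, 504 and 527 CPM (log2 change 2.26 ± 0.38, adjusted p 1.67e-05). HGO and P5CDH rose, with log2 changes of 1.35 ± 0.25 and 0.95 ± 0.18. D2HGDH was the member lower in the rootstock (11.8, 9.51 and 10.1 against 16.5, 15.4 and 15.4 CPM), a call lost without rootstock replicate 2 or 3 or intact replicate 1 (adjusted p 0.0643 to 0.09). Of 14 autophagy genes 1 rose, the cargo receptor NBR1, from 222, 149.9 and 138 CPM to 435, 286 and 294 CPM, and none fell (1 without rootstock replicate 1), with a median of 0.23.

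Starch and other sugar-induced genes fell in 7 of 9 cases (median -0.84). GBSS1 (AT1G32900), the granule-bound starch synthase, fell from 239, 126 and 329 CPM to 10.7, 16.1 and 18.9 CPM (log2 change -3.93 ± 0.53, adjusted p 5.74e-07), and APL3, ADG1 and SBE2.2, which supply ADP-glucose or branch starch, fell from 22.2, 28.7 and 46.2 CPM to 9.98, 7.64 and 8.31 CPM, from 156, 177 and 164 CPM to 103, 104 and 87.2 CPM and from 133, 169 and 139 CPM to 60.7, 74.98 and 64.4 CPM. The member that rose, GPT2, rests on rootstock replicate 1: its libraries had 4.6, 0 and 0 CPM against 0, 0.123 and 0.0755 CPM (log2 change 4.16 ± 1.31, adjusted p 0.0117; -3.98 without rootstock replicate 1; 4.81 without rootstock replicate 2; 4.76 without rootstock replicate 3; 4.91 without intact replicate 2), and the call was lost without rootstock replicate 1 (adjusted p 0.326). Sugar transporters and invertases rose in 7 and fell in 4 of 18 cases (median 0.29), beside 22.9% and 17.4% of all loci. CWINV1 (AT3G13790), a cell wall invertase that splits sucrose outside the cell, rose from 95.9, 69.9 and 63.3 CPM to 1088, 835 and 787 CPM (log2 change 3.56 ± 0.29, adjusted p 7.02e-11), and the hexose importers STP1, STP4 and STP13 from 185, 146 and 86.9 CPM to 1446, 712 and 872 CPM, from 175, 122 and 97.2 CPM to 1173, 673 and 649 CPM and from 59.1, 20.09 and 25.4 CPM to 404, 247 and 181 CPM. SWEET2 of the same carrier family as SWEET11 rose (log2 change 1.32 ± 0.28). The 4 that fell were other SWEET carriers: SWEET17, a fructose carrier of the vacuole, from 24.5, 24.6 and 29.6 CPM to 3.82, 3.84 and 4.995 CPM (log2 change -2.64 ± 0.27, adjusted p 6.03e-09), SWEET15 (-3.26 ± 0.46), SWEET16 (-1.19 ± 0.25) and SWEET1 (-1.38 ± 0.32).

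Photosynthesis genes fell moderately. Of 43 tested genes of the photosystems and their antenna 29 fell (19 without intact replicate 1 and 18 without rootstock replicate 2) and none rose (1 without intact replicate 1), with a median of -0.59. Of 15 Calvin cycle genes 12 fell and none rose (median -0.89). LHCB2.3 and LHCB1.2, of the antenna of photosystem II, fell from 625, 492 and 504 CPM to 104, 111 and 193 CPM (log2 change -1.99 ± 0.32, adjusted p 1.04e-05) and from 7770.0, 5402 and 5473 CPM to 2300.5, 2031 and 2416 CPM (log2 change -1.47 ± 0.25, adjusted p 1.83e-05). PSBS, of photoprotection, fell from 1222, 1204 and 1499 CPM to 354, 436 and 519 CPM (log2 change -1.58 ± 0.27, adjusted p 1.87e-05). PSBQ fell from 982, 1082 and 1066 CPM to 504, 538 and 603 CPM. LHCA6 fell from 69.9, 74.9 and 84.03 CPM to 7.74, 12.98 and 20.6 CPM. LHCB1.3, the member with the highest mean, had 20321, 11905 and 17091 CPM against 26333, 13302 and 15315 CPM, overlapped and did not pass. SBPASE fell from 455, 546 and 603 CPM to 198, 231 and 277 CPM (log2 change -1.18 ± 0.19, adjusted p 1.08e-05). GAPB fell from 1180.1, 1168 and 1424 CPM to 427, 503 and 659.7 CPM (log2 change -1.25 ± 0.21, adjusted p 1.71e-05). PRK fell from 1036, 1041 and 1086 CPM to 501, 581 and 691 CPM. Chlorophyll genes fell in 6 and rose in 1 of 18 cases (median -0.38), with GLK1 (AT2G20570), a factor of chloroplast development, going from 89.3, 76.3 and 75.7 CPM to 25.9, 25.7 and 22.2 CPM (log2 change -1.71 ± 0.19, adjusted p 1.82e-08). The rise was NYE1 of chlorophyll breakdown, from 20.5, 25.1 and 24.6 CPM to 30.8, 35.5 and 32.7 CPM, and it lost its call without rootstock replicate 2 or 3 or intact replicate 1 (adjusted p 0.0575 to 0.119), with upper-quartile scaling (adjusted p 0.0706) and without the low-count filter (adjusted p 0.0658).

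All 19 tested genes of aliphatic glucosinolate synthesis fell (median -5.71). MYB28 (AT5G61420), the factor that activates the pathway, fell from 140.2, 205 and 196 CPM to 8.78, 16.1 and 14.8 CPM (log2 change -3.77 ± 0.26, adjusted p 1.96e-12), less far than the enzyme genes above. GSTU20 (AT1G78370), a glutathione transferase of the pathway, fell from 190.3, 342 and 256 CPM to 1.88, 0.877 and 1.49 CPM (log2 change -7.55 ± 0.55, adjusted p 7.17e-12). In the indole branch, which starts from tryptophan, 5 of 12 tested genes fell and 1 rose (2 without rootstock replicate 2), with a median of -0.29. CYP79B2 and CYP79B3 of the first step fell from 226, 252 and 183 CPM to 29.1, 37.8 and 30.6 CPM (log2 change -2.76 ± 0.19, adjusted p 1.48e-12) and from 446, 379.7 and 324 CPM to 61.8, 62.6 and 71.5 CPM (log2 change -2.55 ± 0.21, adjusted p 6.24e-11). The activator MYB34 fell from 32.3, 42.8 and 38.7 CPM to 8.21, 14.2 and 9.85 CPM. SUR1 and UGT74B1, which both branches use, also fell. CYP81F2, which modifies indole glucosinolates in defence, rose from 1.68, 2.03 and 2.11 CPM to 14.2, 8.92 and 11.1 CPM (log2 change 2.54 ± 0.52, adjusted p 0.00024), while CYP83B1 (650.1, 446 and 317 CPM against 521, 405 and 340.0 CPM) overlapped and did not pass. Of 12 tested flavonoid and anthocyanin genes 2 fell and none rose, with a median of -1.86 from low levels. PAP1, the anthocyanin activator, fell from 17.2, 3.97 and 19.8 CPM to 2.25, 0.951 and 0.373 CPM (log2 change -3.54 ± 0.88, adjusted p 0.00186; -4.31 without rootstock replicate 1), and FLS1, a flavonol synthase gene, was at 0.261, 0.0366 and 0.187 CPM against 0.764, 0.246 and 1.36 CPM, a call lost without rootstock replicate 2 or 3 or intact replicate 1 or 3 (adjusted p 0.0566 to 0.197) and without the low-count filter (adjusted p 0.0521).

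Stress-inducible WRKY factors rose in all 12 tested cases (median 2.4). WRKY48 (AT5G49520) rose from 3.56, 4.84 and 3.13 CPM to 68.2, 80.4 and 64.99 CPM (log2 change 4.2 ± 0.39, adjusted p 7.09e-10). WRKY6 (AT1G62300) rose from 14.2, 11.03 and 12.2 CPM to 120.3, 107 and 106 CPM (log2 change 3.15 ± 0.27, adjusted p 1.08e-10) and WRKY18 (AT4G31800) from 20.98, 23.4 and 17.6 CPM to 92.3, 76.3 and 88.8 CPM (log2 change 2.05 ± 0.21, adjusted p 3.68e-09). WRKY46 and WRKY22 rose, with log2 changes of 3.87 ± 0.64 and 1.65 ± 0.29. Of 12 tested salicylate and defence genes 3 rose (6 without intact replicate 1) and 1 fell (2 without intact replicate 2, 0 without intact replicate 3 or rootstock replicate 2 or 3 and 4 without rootstock replicate 1), with a median of -0.05. Of all loci tested, 22.9% rose. SAG101 and EDS1, partners in immune signalling, rose from 15.4, 12.7 and 11.3 CPM to 43.7, 38.5 and 32.1 CPM (log2 change 1.54 ± 0.20, adjusted p 2.2e-07) and from 49.9, 41.3 and 41.7 CPM to 65.4, 76.7 and 78.6 CPM, and ICS1, of salicylate synthesis, was at 32.4, 20.5 and 20.5 CPM against 30.9, 29.5 and 35.7 CPM and did not pass. It passed without rootstock replicate 1 (adjusted p 0.0407). PBS3, of salicylate synthesis, had 4.91, 0.219 and 0.233 CPM against 0.0509, 0 and 0.0378 CPM (log2 change 5.82 ± 1.85, adjusted p 0.0126; 2.88 without rootstock replicate 1; 5.18 without intact replicate 2) and lost its call without rootstock replicate 1 or intact replicate 2 (adjusted p 0.0617 to 0.284). WRKY54, the member that fell, had 0.261, 0 and 0 CPM against 0.5601, 0.308 and 0.793 CPM and lost its call without rootstock replicate 2 or 3 or intact replicate 1 or 3 (adjusted p 0.0706 to 0.17) and without the low-count filter (adjusted p 0.0529).

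Senescence markers rose in 5 and fell in 2 of 7 cases (median 1.83). SAG14 rose from 13.1, 7.55 and 3.36 CPM to 158, 90.3 and 94.2 CPM (log2 change 3.85 ± 0.54, adjusted p 1.12e-06). The NAC factor NAP rose from 4.28, 6.59 and 10.8 CPM to 34.3, 17.1 and 26.1 CPM. NAC3 (AT3G29035) rose from 4.94, 6.78 and 5.36 CPM to 43.9, 26.9 and 24.7 CPM. SAG21 fell from 165, 149 and 149 CPM to 82.3, 61.9 and 65.6 CPM (log2 change -1.14 ± 0.28, adjusted p 0.00146). Glutathione transferases, which conjugate toxic and stress compounds, rose in 21 and fell in 6 of 33 cases (median 1.48), with GSTU4 going from 1.37, 0.986 and 0.453 CPM to 29.9, 25.6 and 28.7 CPM (log2 change 4.92 ± 0.37, adjusted p 1.05e-11) and GSTU6 from 1.93, 1.73 and 1.62 CPM to 43.6, 47.5 and 58.8 CPM (log2 change 4.83 ± 0.38, adjusted p 2.32e-11). Members that fell include GSTF9, from 1114, 1038 and 969 CPM to 545, 362 and 348 CPM (log2 change -1.32 ± 0.23, adjusted p 2.43e-05), and GSTU20, counted above with glucosinolates. Hypoxia genes rose in 4 and fell in 2 of 13 cases (median 0.91), beside 22.9% and 17.4% of all loci. The alanine aminotransferase gene AlaAT1 rose from 109.7, 87.2 and 97.8 CPM to 215, 165 and 174 CPM (log2 change 0.91 ± 0.13, adjusted p 1.16e-06). The alcohol dehydrogenase gene ADH1 rose from 1.73, 1.39 and 1.74 CPM to 8.05, 4.46 and 3.36 CPM. The phytoglobin gene HB1 fell from 9.11, 9.18 and 11.7 CPM to 1.05, 1.21 and 0.7003 CPM (log2 change -3.33 ± 0.57, adjusted p 2.31e-05). PDC2, a pyruvate decarboxylase gene, rose (log2 change 1.54 ± 0.49), a call lost without rootstock replicate 1 or intact replicate 2 or 3 (adjusted p 0.0556 to 0.0807). PCO2, a plant cysteine oxidase gene, fell (log2 change -0.84 ± 0.30), a call lost without rootstock replicate 1 or 2 or intact replicate 1 or 2 (adjusted p 0.0608 to 0.168) and in a fit of the compared groups alone (adjusted p 0.0592).

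Marker lists of other cell types differed between the pieces, and their part in the results was not tested. The 8 Casparian strip genes, active in root-type endodermis, summed to 605, 760.2 and 561.3 CPM in the rootstock and 300.6, 170 and 88.75 CPM in intact tissue, with no member at 0. CASP1 (AT2G36100), a scaffold protein of the strip, had 212, 238 and 184 CPM against 72.8, 38.4 and 16.6 CPM, and MYB36 (AT5G57620), its activator, 72.9, 77.2 and 71.6 CPM against 40.2, 32.4 and 21.3 CPM. None of the 8 passed (MYB36 log2 change 1.24 ± 0.60, adjusted p 0.103; CASP1 log2 change 2.31 ± 1.37, adjusted p 0.185), and 1 was called lower without rootstock replicate 2. In a fit of the 6 compared libraries alone, whose spread is estimated from these groups, 6 of the 8 rose. MYB36 passed with replicate number as a block (adjusted p 0.00585) and in a fit of the compared groups alone (adjusted p 0.000669), and CASP1 in a fit of the compared groups alone (adjusted p 0.0086). The intact libraries differed widely among themselves in the summed level, which fell in the order of their replicate numbers.

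Suberin genes, active in endodermis and wound periderm, rose in 2 and fell in 3 of 5 tested of 15 members (median -0.62), and 7 members had 0 counts in each group. The summed level was 98.51 to 129.1 CPM in the rootstock and 46.04 to 66.39 CPM in intact tissue. The 3 falls reached a log2 change of -3.13. Values of single members are given here for the 2 rises only, which go against the majority. FAR1 (AT5G22500), a fatty acyl reductase, rose from 2.14, 2.095 and 1.47 CPM to 20.5, 21.9 and 13.03 CPM (log2 change 3.28 ± 0.42, adjusted p 3.21e-07). ASFT, of the phenolic part of suberin, had 73.1, 93.7 and 72.6 CPM against 37.6, 19.7 and 11.3 CPM, and its call was lost without rootstock replicate 1, 2 or 3 or intact replicate 2 or 3 (adjusted p 0.0558 to 0.151), without the low-count filter (adjusted p 0.0929) and in DESeq2 (adjusted p 0.0502). Cuticle and epidermis genes fell in 8 and rose in 2 of 12 cases (median -0.79), and their summed level was 1615 to 2084 CPM in the rootstock and 2036 to 2516 CPM in intact tissue. PDF1 and PDF2, of epidermal identity, fell from 14.6, 10.3 and 22.2 CPM to 0.261, 0.183 and 0.233 CPM (log2 change -6.11 ± 0.80, adjusted p 3.76e-07) and from 78.5, 68.2 and 68.1 CPM to 18.4, 23.9 and 21.3 CPM (log2 change -1.75 ± 0.15, adjusted p 8.85e-11), while the wax and fatty acid genes KCS1 and CER3 rose, with log2 changes of 0.95 ± 0.21 and 0.86 ± 0.23.

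Markers of the stomatal lineage fell in 4 of 8 cases (median -1.72), summing to 11.81 to 21.85 CPM in the rootstock and 35.95 to 36.93 CPM in intact tissue. SPCH, which starts the lineage, fell from 1.68, 0.955 and 0.944 CPM to 0.105, 0.146 and 0.2801 CPM. The guard cell factor gene MYB60 fell from 11.8, 13.9 and 15.4 CPM to 3.97, 7.57 and 6.26 CPM (log2 change -1.20 ± 0.29, adjusted p 0.00149). Of 4 tested shoot meristem genes 2 fell and none rose, with STM going from 6.52, 8.72 and 7.78 CPM to 0.627, 0.804 and 0.934 CPM (log2 change -3.27 ± 0.61, adjusted p 6.92e-05) and 2 of 6 members at 0 counts (summed level 51.21 to 57.34 CPM and 58.16 to 67.19 CPM). Of 7 root hair genes 5 had 0 counts in both groups and 1 was tested, RBOHC, at 0.0523, 0.585 and 0.467 CPM against 0.0509, 0.154 and 0 CPM, which did not pass. Aquaporins rose in 6 and fell in 3 of 17 cases (median 0.16), with TIP2 (AT3G26520) of the tonoplast going from 1054, 774 and 777 CPM to 3773, 2528 and 3066 CPM (log2 change 1.85 ± 0.27, adjusted p 2.16e-06) and PIP2E of the plasma membrane from 471, 365 and 448 CPM to 129, 116 and 123 CPM (log2 change -1.80 ± 0.23, adjusted p 1.95e-07). PIP2;4 fell (log2 change -1.18 ± 0.47), a call lost without rootstock replicate 2 or 3 or intact replicate 1 or 2 (adjusted p 0.0615 to 0.179). Of 12 clock genes 2 rose and none fell (median 0.44). The aquaporin and clock counts stand beside 22.9% of all loci that rose and 17.4% that fell. LUX of the evening complex rose from 4.33, 3.79 and 3.399 CPM to 8.99, 7.897 and 8.87 CPM (log2 change 1.16 ± 0.24, adjusted p 0.000218), and RVE4 (247, 170.2 and 292 CPM against 197, 127 and 129 CPM) lost its call without rootstock replicate 1 or 3 or intact replicate 2 or 3 (adjusted p 0.0804 to 0.171), with upper-quartile scaling (adjusted p 0.054) and without the low-count filter (adjusted p 0.0539).

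The dof quadruple scion was measured against the same intact libraries, so the values of the comparisons are given side by side and no test of likeness was made. In the scion 10564 of 19476 loci were called (54.2%), 5584 higher and 4980 lower. The median change of the replication list was 3.1 in the scion and 2.1 in the rootstock, and of the mitosis list 2.96 and 2.83. Sugar starvation genes had medians of -1.28 in the scion (1 higher, 7 lower) and 1.47 in the rootstock, and SEN1 had 19.99, 14.1 and 11 CPM in the scion. Amino acid breakdown genes had medians of -0.47 and 1.01, senescence markers -1.55 and 1.83, and stress WRKY factors 0.36 (4 higher, 3 lower) and 2.4. Photosystem genes had -2.08 (42 of 43 lower) and -0.59, Calvin cycle genes -2.49 (15 of 15 lower) and -0.89. Flavonoid genes had 3.4 (7 higher, none lower) and -1.86. Casparian strip genes had -3.01 (5 of 8 lower, none higher) and 1.58 (none called). Aliphatic glucosinolate genes were lower on both sides, at -4.4 and -5.71 with 19 of 19 called in each. XTH24 had 35.4, 21.7 and 17.1 CPM in the scion, near its intact level, and 2755, 1375 and 1251 CPM in the rootstock, and SWEET11 1.17, 1.27 and 1.32 CPM in the scion and 129, 152 and 171 CPM in the rootstock.

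**Figure D3:**
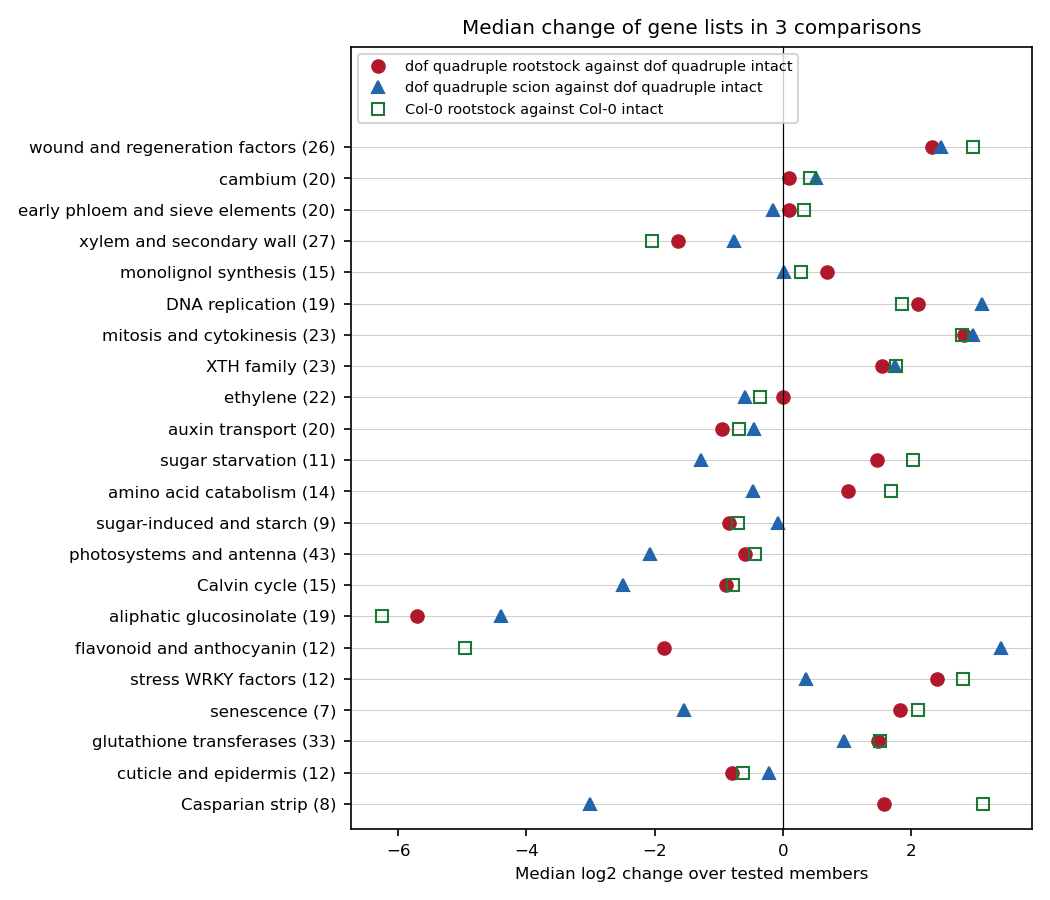
Median log2 change over the tested members of 22 gene lists (number tested in parentheses) in the dof quadruple rootstock (red circles) and scion (blue triangles), each against the dof quadruple intact hypocotyl, and in the Col-0 rootstock against Col-0 intact (open green squares). The scion stands on the other side of 0 for sugar starvation (-1.28 against 1.47), flavonoid (3.4 against -1.86) and Casparian strip genes (-3.01 against 1.58). It also does for senescence (-1.55 against 1.83), amino acid catabolism (-0.47 against 1.01) and, by little, phloem genes (-0.15 against 0.09).

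To ask where the mutant's response differed from the wild type's, the change from intact to rootstock in dof quadruple was set against that in Col-0 as an interaction term in the same fit. It was called for 175 of 19476 loci (0.899%): 32 with a more positive and 143 with a more negative change in dof quadruple. These counts moved with the libraries: 21 and 93 were called without Col-0 intact replicate 3, 20 were more positive without Col-0 rootstock replicate 2, and 94 more negative without dof quadruple intact replicate 1. Without Col-0 rootstock replicate 1, the library with 2514 loci of its own, they were 28 and 116. DESeq2 called 81 and 215, and the fit with the replicate number as a block 51 and 197. Among the 727 tested list loci, 16 were called, 15 of them more negative. In Col-0 itself 18 of the 26 wound factors, 16 of 19 replication genes, 22 of 23 mitosis genes and 9 of 11 sugar starvation genes rose, and 19 of 19 aliphatic glucosinolate genes fell. Of all 19476 loci, 4410 rose and 3320 fell in Col-0. None of the members of the replication, mitosis, sugar starvation or aliphatic glucosinolate lists was called in the interaction term, which does not show that their responses were alike.

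Most of the 143 loci were higher in the intact mutant, not lower in its rootstock. In intact hypocotyl 128 of them were called higher in dof quadruple than in Col-0 and none lower (median log2 difference 3.19), where 4.59% of all loci were called. In the rootstock 3 were called higher and 17 lower (median 0.1), where 3.73% of all loci were called. These counts describe loci chosen with the same libraries and are no further test. Every dof quadruple intact library lay above every Col-0 intact library in 133 of the 143, and the rootstock libraries of the genotypes overlapped in 98. Both numbers follow in part from the choice of the loci, and the shares over all 19476 loci were not counted. Their median level was 8.605, 7.517 and 5.249 CPM in the dof quadruple intact libraries and 0.5048 to 1.395 CPM in the 9 intact libraries of the other genotypes. In the rootstocks it was 32.7, 29.3 and 28.1 CPM in dof quadruple and 28.0 to 39.7 CPM in the others. From intact to rootstock, 109 of the 143 still rose in dof quadruple, 9 fell and 25 did not pass, with a median log2 change of 2.17 against 5.81 in Col-0.

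**Figure D4:**
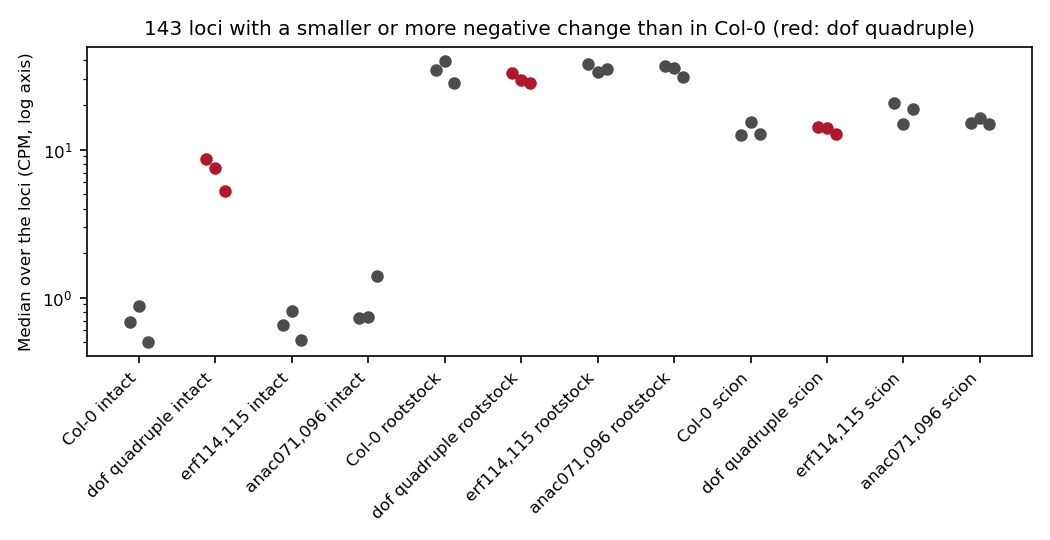
Median level, in CPM on a log axis, of the 143 loci with a more negative change in dof quadruple than in Col-0, in each of the 36 libraries by group (dof quadruple in red). The dof quadruple intact libraries (8.605, 7.517 and 5.249 CPM) lie above the other 9 intact libraries (0.5048 to 1.395 CPM), and the rootstocks of all genotypes overlap.

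WRKY53 (AT4G23810), a senescence and defence factor, had 6.72, 7.52 and 5.21 CPM in intact dof quadruple and 0.276, 0.03496 and 0.0918 CPM in intact Col-0, with 13.3, 13.02 and 13.7 CPM and 12.3, 12.1 and 10.2 CPM in the rootstocks (log2 difference -5.41 ± 0.72, adjusted p 2.65e-05; -6.43 without Col-0 intact replicate 1). Its rise within dof quadruple (log2 change 1.04 ± 0.40, adjusted p 0.0393) was lost without any 1 of the 6 libraries (adjusted p 0.059 to 0.136), with upper-quartile scaling (adjusted p 0.0609) and without the low-count filter (adjusted p 0.0603). CWINV1 had 95.9, 69.9 and 63.3 CPM in intact dof quadruple and 8.13, 7.62 and 4.41 CPM in intact Col-0, with 1131, 1184 and 749 CPM in the Col-0 rootstock (log2 difference -3.68 ± 0.39, adjusted p 2.19e-06). In both genes the intact groups of the genotypes stood well apart, the rootstocks overlapped for CWINV1, and those of WRKY53 differed little. Intact libraries of the genotypes also stood apart, with overlapping rootstocks, for MLO12 (AT2G39200), a membrane protein of powdery mildew susceptibility (log2 difference -6.59 ± 0.95, adjusted p 9.53e-05; -5.81 without Col-0 rootstock replicate 2; -9.76 without Col-0 intact replicate 2), for the receptor kinase gene IOS1 (log2 difference -5.11 ± 0.70, adjusted p 4.11e-05; -6.18 without Col-0 intact replicate 2), for the zinc transporter gene ZIP5 (log2 difference -4.89 ± 0.88, adjusted p 0.00196) and for the trypsin inhibitor gene TI1 (log2 difference -4.25 ± 0.77, adjusted p 0.00222; -5.08 without Col-0 intact replicate 2). IOS1, for example, had 24.3, 24.03 and 16.01 CPM in intact dof quadruple and 0.367, 0.734 and 0 CPM in intact Col-0.

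Wound and stress genes of the lists were among the 143 loci. For ERF114 and ERF115 every dof quadruple rootstock library was also below every Col-0 rootstock library. ERF114 stood at 3.61, 1.11 and 1.25 CPM in intact dof quadruple against 0, 0.454 and 0 CPM in intact Col-0, and at 53.9, 54.2 and 55.6 CPM against 62.8, 64.8 and 65.3 CPM in the rootstocks (log2 difference -3.65 ± 0.71, adjusted p 0.00468; -2.95 without dof quadruple intact replicate 1; -8.78 without Col-0 intact replicate 2). In intact Col-0 only replicate 2 had counts, and the call was lost in a fit of the compared groups alone (adjusted p 0.0664). ERF115 stood at 0.255, 0.339 and 0.491 CPM against 0.138, 0 and 0.0459 CPM in intact tissue and 16.99, 14.8 and 16.3 CPM against 28.2, 27.6 and 30.1 CPM in the rootstocks (log2 difference -3.45 ± 0.76, adjusted p 0.0178; -4.73 without Col-0 intact replicate 1; -2.78 without Col-0 intact replicate 2), and this call was lost without dof quadruple intact replicate 3 or Col-0 intact replicate 2 or 3 (adjusted p 0.0757 to 0.105). ACS7 had 0 counts in intact Col-0 and 1.17, 0.216 and 0.264 CPM in intact dof quadruple (log2 difference -7.10 ± 1.35, adjusted p 0.00487; -6.05 without dof quadruple intact replicate 1), and so did SAG13 (0.866, 0.7702 and 0.566 CPM, log2 difference -7.04 ± 1.54, adjusted p 0.0206; -5.76 without Col-0 rootstock replicate 2), so their differences depend on the prior count of the fit. The call of ACS7 was lost in a fit of the compared groups alone (adjusted p 0.0889), and that of SAG13 without Col-0 intact replicate 1, 2 or 3 (adjusted p 0.0641 to 0.0779) and in a fit of the compared groups alone (adjusted p 0.148). WRKY6 differed by -1.98 ± 0.36. WRKY48 differed by -3.02 ± 0.58 (-4.45 without Col-0 intact replicate 2), a call lost in a fit of the compared groups alone (adjusted p 0.0552), and FAR1 by -3.05 ± 0.63 (-6.31 without Col-0 intact replicate 2), a call lost in a fit of the compared groups alone (adjusted p 0.128). GSTU24 differed by -1.88 ± 0.42, a call lost without dof quadruple rootstock replicate 2 or 3, dof quadruple intact replicate 1, Col-0 rootstock replicate 1 or Col-0 intact replicate 2 (adjusted p 0.0505 to 0.0969). GSTF7 differed by -3.66 ± 0.91 (-2.88 without dof quadruple intact replicate 1), a call lost without dof quadruple rootstock replicate 2 or 3, dof quadruple intact replicate 1 or 2, Col-0 rootstock replicate 1 or 2 or Col-0 intact replicate 1, 2 or 3 (adjusted p 0.0598 to 0.233), without the low-count filter (adjusted p 0.123) and in a fit of the compared groups alone (adjusted p 0.0732). STP13 differed by -3.19 ± 0.77 (-2.58 without dof quadruple intact replicate 1; -3.88 without Col-0 intact replicate 1), a call lost without dof quadruple rootstock replicate 2 or 3, dof quadruple intact replicate 1, Col-0 rootstock replicate 1 or 2 or Col-0 intact replicate 2 or 3 (adjusted p 0.0611 to 0.181), without the low-count filter (adjusted p 0.0962) and in a fit of the compared groups alone (adjusted p 0.0558).

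Other members also differed in the rootstock. DOF2.1 was lower in the dof quadruple rootstock than in Col-0, at 129, 150.3 and 164 CPM against 405, 387 and 442 CPM, and higher in intact tissue, at 30.55, 38.3 and 28.3 CPM against 16.4, 9.72 and 17.5 CPM (log2 difference -2.63 ± 0.35, adjusted p 2.65e-05). SWEET17 had 3.82, 3.84 and 4.995 CPM in the dof quadruple rootstock and 16.6, 15.7 and 22.9 CPM in the Col-0 rootstock (log2 difference -1.46 ± 0.37, adjusted p 0.045), a call lost without dof quadruple rootstock replicate 1, 2 or 3, dof quadruple intact replicate 1, 2 or 3, Col-0 rootstock replicate 1, 2 or 3 or Col-0 intact replicate 1 or 2 (adjusted p 0.0532 to 0.137). BAM3 (log2 difference -0.90 ± 0.22, adjusted p 0.043) lost its call without any 1 of the 12 libraries (adjusted p 0.0544 to 0.136) and with upper-quartile scaling (adjusted p 0.0538). OLEO4, an oleosin gene of oil bodies, and RAB18, a dehydrin of drought and seeds, had 33.9, 0.322 and 0.224 CPM and 234, 1.25 and 0.2798 CPM in the Col-0 rootstock, where replicate 1 stood far above the others (log2 difference -13.25 ± 3.14, adjusted p 0.0327; -11.64 without dof quadruple intact replicate 2; -7.89 without Col-0 rootstock replicate 1, and log2 difference -8.13 ± 1.81, adjusted p 0.0178; -1.51 without Col-0 rootstock replicate 1). The call of OLEO4 was lost without dof quadruple rootstock replicate 1, 2 or 3, dof quadruple intact replicate 1 or 2, Col-0 rootstock replicate 1 or Col-0 intact replicate 1, 2 or 3 (adjusted p 0.0604 to 0.635), without the low-count filter (adjusted p 0.0773) and with replicate number as a block (adjusted p 0.0527). That of RAB18 was lost without dof quadruple rootstock replicate 1, 2 or 3, dof quadruple intact replicate 1, Col-0 rootstock replicate 1 or Col-0 intact replicate 1, 2 or 3 (adjusted p 0.0508 to 1), without the low-count filter (adjusted p 0.0592) and in a fit of the compared groups alone (adjusted p 0.344).

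The 32 loci with a more positive change were mostly those that fell less in the mutant. In dof quadruple 20 of them fell and 7 rose, in Col-0 27 fell and 4 rose, and the median log2 change was -1.39 against -3.09. Their median level was 14.7, 15.3 and 14.7 CPM in the dof quadruple rootstock and 4.35 to 8.63 CPM in the 9 other rootstocks. In intact tissue it was 27.1, 25.4 and 19.0 CPM against 26.3 to 43.8 CPM. HB52 (AT5G53980), a homeobox factor, had 9.41, 10.2 and 9.897 CPM in the dof quadruple rootstock and 1.1, 1.21 and 1.57 CPM in the Col-0 rootstock (log2 difference 2.25 ± 0.45, adjusted p 0.00661). AGP31, an arabinogalactan protein of vascular walls, had 50.3, 61.5 and 72.9 CPM and 9.896, 6.57 and 12.4 CPM (log2 difference 1.98 ± 0.40, adjusted p 0.00691). The aquaporin PIP2;5 had 26.1, 20.18 and 28.99 CPM and 7.65, 11.3 and 10.2 CPM (log2 difference 1.99 ± 0.48, adjusted p 0.0336), a call lost without dof quadruple rootstock replicate 1 or 3, dof quadruple intact replicate 1 or 2, Col-0 rootstock replicate 1, 2 or 3 or Col-0 intact replicate 2 or 3 (adjusted p 0.0518 to 0.163). GASA6, a gibberellin-regulated peptide gene, had 17.6, 23.3 and 26.9 CPM and 1.999, 3.22 and 7.72 CPM (log2 difference 3.3 ± 0.69, adjusted p 0.0102; 4.01 without Col-0 rootstock replicate 3). For these genes the rootstocks of the genotypes stood apart.

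Intact libraries of the genotypes stood apart for PRR2, MSRB6 and AKN2, and the rootstocks overlapped for PRR2. PRR2 (AT4G13660), a pinoresinol reductase gene of lignan synthesis, had 18.2, 7.36 and 9.101 CPM in intact dof quadruple and 45.9, 35.9 and 45.98 CPM in intact Col-0, and 137, 111 and 115 CPM and 121, 138 and 125 CPM in the rootstocks (log2 difference 1.81 ± 0.32, adjusted p 0.00181). MSRB6, a methionine sulfoxide reductase gene, had 1.68, 2.37 and 3.59 CPM and 25.03, 28.5 and 66.5 CPM in intact tissue (log2 difference 3.54 ± 0.70, adjusted p 0.00547). AKN2, an APS kinase gene of sulfur metabolism, had 217, 284 and 218 CPM and 359.6, 434 and 439 CPM in intact tissue and 35.1, 34.95 and 23.7 CPM and 13.6, 12.7 and 20.6 CPM in the rootstocks (log2 difference 1.78 ± 0.32, adjusted p 0.00192). AHP4, a phosphotransfer protein of cytokinin signalling, passed narrowly (log2 difference 2.14 ± 0.54, adjusted p 0.045; 1.49 without dof quadruple rootstock replicate 2; 2.82 without Col-0 rootstock replicate 3), and the call was lost without dof quadruple rootstock replicate 2, dof quadruple intact replicate 1 or 3, Col-0 rootstock replicate 1 or 2 or Col-0 intact replicate 1, 2 or 3 (adjusted p 0.0571 to 0.32), without the low-count filter (adjusted p 0.072) and in a fit of the compared groups alone (adjusted p 0.26).

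Casparian strip genes stood beside these differences. Their summed level was 300.6, 170 and 88.75 CPM in intact dof quadruple and 1.212 to 33.78 CPM in the 9 other intact libraries. In the rootstocks it was 605, 760.2 and 561.3 CPM in dof quadruple and 12.8 to 203.4 CPM in the others, and in the dof quadruple scions 53.8, 18.97 and 4.88 CPM. CASP1 had 0, 0 and 3.53 CPM in intact Col-0 and 6.398, 4.03 and 7.78 CPM in the Col-0 rootstock. None of these 8 genes was called in the interaction term. Every dof quadruple intact and rootstock library was above every other library of its tissue, and the part of this in the differences was not tested.

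**Figure D5:**
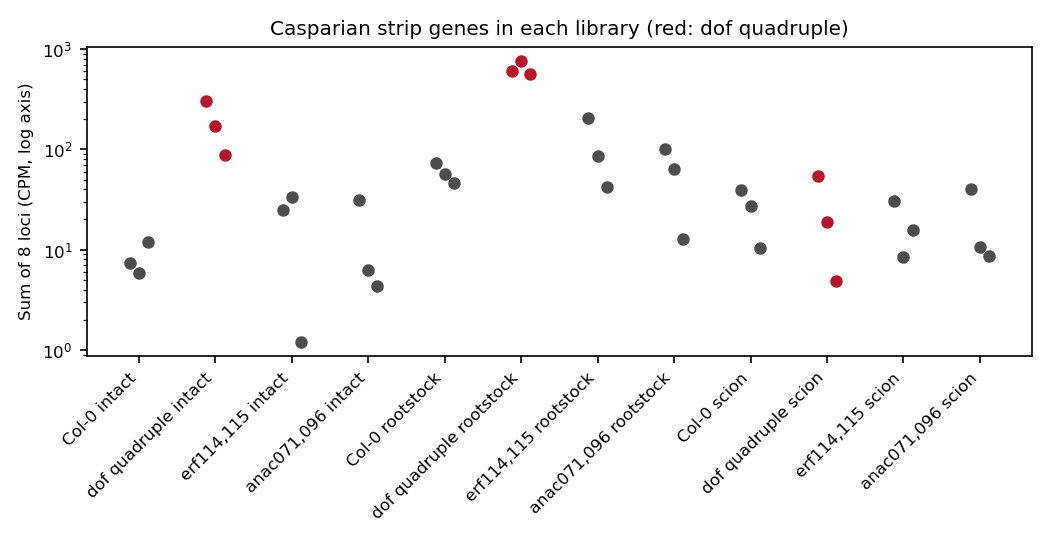
Summed level of the 8 Casparian strip genes, in CPM on a log axis, in each of the 36 libraries by group (dof quadruple in red). The dof quadruple rootstocks (561.3 to 760.2 CPM) and intact hypocotyls (88.75 to 300.6 CPM) lie above all other libraries of their tissue, which reach 203.4 and 33.8 CPM.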

How the data were processed

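Polyadenylated RNA of 36 libraries (12 groups of 3) was sequenced as paired ends, per the labels' protocols. The authors deposited whole-number counts for 33341 loci in each library, made with fastp, HISAT2, HTSeq and TAIR10, per the submitters' processing notes, which also name DESeq2. Versions, strand handling and annotation are not stated there. Library totals differ, as raw counts do. All 36 columns were matched to samples by name.

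From these counts, loci passing filterByExpr with a minimum count of 10 (19476) were tested in edgeR 4.0.16 (R 4.3.3; limma 3.58.1) with TMM scaling and robust quasi-likelihood fits of all 36 libraries in 12 groups, with 24 residual degrees of freedom. The standard error of a log2 change is its size divided by the square root of F. The response difference is an interaction contrast. The contrasts of dof quadruple with Col-0 within a tissue were added after seeing the data and describe the loci that differed. Common biological variation was 25.8%, and depth in the 6 libraries 20.46 to 29.34 M counts. Replicates of a group differed by more than sampling noise (chi-square per degree of freedom 22.81 to 44.04), so each counts as 1. For a group at 0 counts, folds use a floor of 3 counts over the group. Folds of all libraries pool counts, and those with a library left out are ratios of mean CPM. Ratios against 1 to 3 counts have exact 95% binomial intervals, which cover counting error only. The script was tested on simulated data. Between rootstock and intact, it called 52 of 100 loci changed by a log2 of 1 and 90 of 100 changed by 2. For the response difference it called 25 of 100 and 75 of 100. False calls numbered 6 and 4.

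The 46 gene lists (853 loci, 727 tested) and the members were chosen with earlier results of these data known. Symbols come from RefSeq's table for the reference, and 33056 of the 33341 loci matched. 33 listed loci are named differently there. Named genes are the targeted DOF genes, the 10 largest rises and 10 largest falls (a mean of at least 10 CPM, libraries apart), and in each list the 5 smallest adjusted p-values, members against the majority and the highest member that did not pass. For the response difference they are the 8 most positive, the 8 most negative and called list members. The text gives values for part of these. SWEET2, KRP5 and KRP6 fall outside that rule and were chosen after their values were seen. Promoters are the 250 bases before each protein-coding start in RefSeq TAIR10.1, searched on both strands in Python 3.11.15. Searches of TATCCA in the sugar starvation list (3 of 12, 25%, against 13.6% of all), of AAAATATCT in the clock list (3 of 12, 25%, against 2.36%) and of AAAG in the DOF lists (100%, against 98%) were descriptions too. Alternatives were DESeq2 1.42.0, other scalings, no filter, the compared groups alone, the replicate number as a block and leaving out each library.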

Additional observations from a re-analysis of the deposited data

Results flagged for a closer look

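The change from intact hypocotyl to rootstock differed between dof quadruple and Col-0, by the interaction term of edgeR's quasi-likelihood fit, for 29 named loci. All values are log2 changes in dof quadruple minus those in Col-0, with standard errors, and adjusted p-values and the libraries that decide a call stand in the report. More negative in dof quadruple were OLEO4 (-13.25 ± 3.14 (-11.64 without dof quadruple intact replicate 2; -7.89 without Col-0 rootstock replicate 1)), RAB18 (-8.13 ± 1.81 (-1.51 without Col-0 rootstock replicate 1)), ACS7 (-7.10 ± 1.35 (-6.05 without dof quadruple intact replicate 1)) and SAG13 (-7.04 ± 1.54 (-5.76 without Col-0 rootstock replicate 2)). Also more negative were MLO12 (-6.59 ± 0.95 (-5.81 without Col-0 rootstock replicate 2; -9.76 without Col-0 intact replicate 2)), WRKY53 (-5.41 ± 0.72 (-6.43 without Col-0 intact replicate 1)), IOS1 (-5.11 ± 0.70 (-6.18 without Col-0 intact replicate 2)), ZIP5 (-4.89 ± 0.88) and TI1 (-4.25 ± 0.77 (-5.08 without Col-0 intact replicate 2)). Among list members the values were -3.68 ± 0.39 for CWINV1, -3.66 ± 0.91 (-2.88 without dof quadruple intact replicate 1) for GSTF7, -3.65 ± 0.71 (-2.95 without dof quadruple intact replicate 1; -8.78 without Col-0 intact replicate 2) for ERF114, -3.45 ± 0.76 (-4.73 without Col-0 intact replicate 1; -2.78 without Col-0 intact replicate 2) for ERF115 and -3.19 ± 0.77 (-2.58 without dof quadruple intact replicate 1; -3.88 without Col-0 intact replicate 1) for STP13. They were -3.05 ± 0.63 (-6.31 without Col-0 intact replicate 2) for FAR1, -3.02 ± 0.58 (-4.45 without Col-0 intact replicate 2) for WRKY48, -2.63 ± 0.35 for DOF2.1, -1.98 ± 0.36 for WRKY6, -1.88 ± 0.42 for GSTU24, -1.46 ± 0.37 for SWEET17 and -0.90 ± 0.22 for BAM3.

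More positive in dof quadruple were MSRB6 (3.54 ± 0.70), GASA6 (3.3 ± 0.69 (4.01 without Col-0 rootstock replicate 3)), HB52 (2.25 ± 0.45), AHP4 (2.14 ± 0.54 (1.49 without dof quadruple rootstock replicate 2; 2.82 without Col-0 rootstock replicate 3)), PIP2;5 (1.99 ± 0.48), AGP31 (1.98 ± 0.40), PRR2 (1.81 ± 0.32) and AKN2 (1.78 ± 0.32).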

How the results depend on the processing

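Of the 145 named loci called between rootstock and intact hypocotyl, 120 kept their call and direction in every setting run, and of the 29 called in the response difference 14 did. The others are named with their values in the report. GPT2 changed direction without dof quadruple rootstock replicate 1, and its log2 change ran from -3.98 to 4.91 with 1 library left out. Between rootstock and intact, all counts stayed within 1.5 times: 3927 to 4744 loci were higher and 3228 to 4255 lower over the settings that keep the 6 compared libraries, and 3625 to 4169 and 2655 to 3140 with 1 library left out. Loci called at least 2-fold numbered 4161 to 4744 with 1 library left out. With upper-quartile scaling 50.2% of called loci were higher, against 56.7%. The response difference moved more: DESeq2 called 81 more positive and 215 more negative loci, and leaving out 1 library gave 20 to 44 and 93 to 158. The cause was not tested. Over all settings, list counts moved by more than 1.5 times in 98 of 1104 pairs of count and setting, and 65 of the 92 counts never did.

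Replicate numbers are not stated to mark a shared day or batch, and the deviations of same-numbered dof quadruple rootstock and intact libraries correlated at 0.192, 0.209 and 0.0958, and those of Col-0 at -0.00921, 0.249 and 0.24. Not all were over 0.1, a cutoff without a stated basis, so the main fit did not pair the samples by number. Whether the numbers mark a shared batch was not tested. As a hint from the data, each dof quadruple rootstock and intact library correlated best with its own number. The summed level of the Casparian strip genes also followed the numbers. Among the dof quadruple and Col-0 groups it fell in their order, except in the dof quadruple rootstock and in intact Col-0. Between the genotypes, same-numbered intact libraries correlated at 0.303, 0.371 and 0.142 and rootstocks at 0.118, 0.166 and 0.196, all over 0.1 and each the best match. With the replicate block 4744 loci were higher and 3667 lower, against 4451 and 3395 in the main fit. The response difference had 51 more positive and 197 more negative loci with the block, against 32 and 143. At this depth, loci with 3 counts or fewer in both groups give no fold.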
